A study of Mus musculus with 24 samples.

Results

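Mouse embryonic stem cells hold a naive pluripotent state through a small set of transcription factors, cytokine receptors and chromatin proteins. Here 31 such genes were followed across 12 groups of cells that differed in their CTCF protein. The genes were named by symbol in a written list whose rule uses no measured value, although it was drawn up with earlier results of these data known. They make up 31 of the 55291 genes in the tables. All 31 passed a filter of a mean normalised count of at least 10 over the 22 treated libraries, which left 18713 genes tested. A normalised count is the number of reads of a gene divided by a scaling factor for its library, and TPM also divides by gene length and is scaled to a constant sum per library. The cells were E14Tg2a embryonic stem cells of strain 129/Ola, grown without feeder cells on gelatin in serum with leukaemia inhibitory factor (LIF), 3 µM CHIR99021 and 1 µM of the MEK inhibitor PD0325901. In every group, untreated cells included, the endogenous CTCF protein carried a degron. This tag leads to its degradation when the auxin indole-3-acetic acid (IAA) is added. A Ctcf transgene could be switched on with doxycycline. The 9 mutant groups (R339Q ID, R342C ID, S354F ID, K365T ID, R377C ID, R377H ID, Q418R ID, R448Q ID and H455R ID) received 500 µM IAA and 1 µg/ml doxycycline for 2 days and expressed a Ctcf transgene with the named amino acid change. The WT IAA group had the wild-type transgene line with IAA and no doxycycline, and so little CTCF by design. The WT ID group had the same line with IAA and doxycycline, and the WT untreated group had neither. Each group had 2 libraries. Each substitution was carried by its own cell line, so that line and substitution cannot be told apart, and all comparisons with WT ID share its pair of libraries. The labels do not say whether replicates were separate cultures, and every p-value below reflects only how these samples varied, which may be technical variation.

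In these cells OCT4 (Pou5f1) and SOX2 bind DNA side by side and, with NANOG and SALL4, form the core of the pluripotency network. Around this core, naive factors such as the Krüppel-like factors, ESRRB, TFCP2L1, TBX3, PRDM14 and NR5A2 keep the network on. LIF binds its receptor LIFR together with gp130 (Il6st), and the signal runs through STAT3 to Klf4, Gbx2, Tfcp2l1 and the feedback inhibitor Socs3. The 2 inhibitors in the medium block GSK3 and MEK, and with them the degradation of beta-catenin and the FGF to ERK signal that pushes cells towards differentiation. CTCF stops cohesin as it extrudes DNA loops at insulator sites, which shapes the contacts between promoters and enhancers.

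The 24 libraries held 27761749 to 77141117 reads in genes, with 1.22% to 3.38% of reads from mitochondrial genes. Ctcf RNA, which counts the endogenous gene and the transgene together and says nothing of protein, had 20200.5 and 20661 normalised counts in R448Q ID and 16752 and 16951 in H455R ID, against 9973 and 10418 in WT ID. The other 7 mutant groups ranged from 8262 to 12255, and WT IAA had 9112 and 9248. No pair of replicates agreed within counting noise, so none was treated as a repeat of another.

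The upstream sequences of 6 members with a RefSeq promoter entry are shown as examples of different patterns. Against WT ID, Nanog and Zfp42 rose in most mutant groups and Gbx2 and Nr0b1 fell in most. Lin28a and Utf1 in WT ID and WT IAA lay below their level in untreated cells. The bases run 5′ to 3′ on the gene's strand and end just before the annotated start (RefSeq entries, build GRCm38.p6, cut at the GENCODE M21 start). Capitals mark matches to POU (ATGCAAA), SOX (CATTGT), KLF (GGGNGTGG), STAT (TTCCNGGAA), Esrrb (TCAAGGTCA) or CTCF core (CCACNAGG) letters on either strand. The windows lie at chr6:122707239-122707488 (plus strand), chr8:43307010-43307259 (minus), chr1:89931180-89931426 (minus, overlapping 2 exons of an antisense transcript), chrX:86191525-86191763 (plus), chr4:134018842-134019066 (minus) and chr7:139943606-139943788 (plus).
Nanog: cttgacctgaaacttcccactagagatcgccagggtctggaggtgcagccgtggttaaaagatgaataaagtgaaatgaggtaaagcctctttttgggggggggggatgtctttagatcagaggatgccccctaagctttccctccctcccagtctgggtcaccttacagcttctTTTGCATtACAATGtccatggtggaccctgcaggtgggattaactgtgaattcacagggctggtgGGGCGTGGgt
Zfp42: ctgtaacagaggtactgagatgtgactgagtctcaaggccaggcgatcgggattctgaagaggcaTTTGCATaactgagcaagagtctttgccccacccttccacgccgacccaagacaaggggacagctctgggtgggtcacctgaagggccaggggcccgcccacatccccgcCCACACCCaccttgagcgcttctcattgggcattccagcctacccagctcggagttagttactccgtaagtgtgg
Gbx2: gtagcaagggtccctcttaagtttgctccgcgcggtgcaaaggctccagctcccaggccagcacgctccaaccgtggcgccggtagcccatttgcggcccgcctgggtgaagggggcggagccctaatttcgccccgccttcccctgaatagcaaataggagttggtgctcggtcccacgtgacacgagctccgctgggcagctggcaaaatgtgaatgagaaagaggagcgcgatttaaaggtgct
Nr0b1: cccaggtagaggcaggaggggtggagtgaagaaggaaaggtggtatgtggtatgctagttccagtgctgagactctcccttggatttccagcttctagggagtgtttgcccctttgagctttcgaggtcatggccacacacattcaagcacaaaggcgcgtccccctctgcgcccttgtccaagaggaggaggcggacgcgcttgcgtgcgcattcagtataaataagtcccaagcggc
Lin28a: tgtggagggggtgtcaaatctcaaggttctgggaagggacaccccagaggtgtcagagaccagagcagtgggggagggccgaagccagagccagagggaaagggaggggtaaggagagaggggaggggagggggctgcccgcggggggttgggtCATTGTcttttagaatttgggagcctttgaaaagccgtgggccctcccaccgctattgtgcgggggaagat
Utf1: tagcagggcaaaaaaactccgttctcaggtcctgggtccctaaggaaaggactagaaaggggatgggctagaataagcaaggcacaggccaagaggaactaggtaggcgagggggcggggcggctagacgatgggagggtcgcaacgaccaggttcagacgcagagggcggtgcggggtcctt

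In the Nanog window a POU match at bases 176 to 182 and a SOX match at bases 184 to 189 lay side by side, counted from the first base printed, and a KLF match lay at bases 241 to 248. The Zfp42 window held a POU match at bases 66 to 72 and a KLF match at bases 176 to 183, and the Lin28a window held a SOX match at bases 155 to 160. No match to these letters lay in the Gbx2, Nr0b1 or Utf1 windows. RefSeq entries matched 20 of the 31 members by symbol. Over the 250 bases before the start, the POU letters were found in 3 of these 20 members (Nanog, Sox2 and Zfp42) and in 4.12% of all 32851 promoters. The SOX letters were found in 2 members (Nanog and Lin28a) and in 10.7% of promoters, and the KLF letters in 5 members (Nanog, Pou5f1, Sall1, Tfcp2l1 and Zfp42) and in 15.9%. The CTCF core letters were found in Tcl1 alone among the 20 and in 4.22% of promoters, and the STAT and Esrrb letters in no member and in 0.913% and 0.387%. A match describes letters in a window and was not tested for binding. The motifs were chosen with the sequences in view and the 6 genes for their measured patterns, so these shares are no independent comparison. The printed windows also differ in length, from 183 bases for Utf1 to 250 for Nanog and Zfp42.

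The members ranked among the more abundant genes of these cells. Their median over the 22 treated libraries was 194 TPM, where the median of all genes tested was 10.4 TPM, and on the scale of normalised counts it was 8399 against 474. Dppa5a, which encodes a KH-domain RNA-binding protein, had the highest level per length in every group, with group means from 2890.2 TPM in R448Q ID to 4711 TPM in WT untreated. Nanog followed, from 1057 TPM in Q418R ID to 1814 TPM in K365T ID, and Zfp42, Pou5f1, Sox2 and Tfcp2l1 had group means between 496 and 1072 TPM. Prdm14, Gbx2, Lin28a, Il6st, Stat3 and Lifr were at the low end, with group means from 18.2 TPM (Gbx2 in K365T ID) to 90.6 TPM (Gbx2 in Q418R ID) over the treated groups. Between the highest and the lowest group mean, Esrrb differed 1.24-fold and Pou5f1 1.26-fold, the narrowest ranges of the set. Dppa3 differed 46.9-fold, Utf1 6.35-fold, Lin28a 5.99-fold and Gbx2 4.98-fold, the widest.

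The expression of pluripotency genes was compared between each mutant group and WT ID to ask how each CTCF substitution affects them, and between WT IAA and WT ID to ask the same of CTCF loss. A gene was taken to have risen or fallen where limma's moderated test gave a Benjamini-Hochberg adjusted p under 0.05 over the 18713 genes. In R448Q ID 14 members rose and 4 fell, against 22.8% and 23.1% of all genes tested, and in Q418R ID 12 members rose and 3 fell, against 11.2% and 13.8% of all genes tested. These groups had the most members rising. In K365T ID 9 members rose and 5 fell, against 17.7% and 14.2% of all genes tested, and in R377H ID 7 members rose and 4 fell, against 14.4% and 10.7% of all genes tested. Here too more members rose than fell. In H455R ID 6 members rose and 10 fell, against 12.6% and 10.5% of all genes tested, and in R339Q ID 6 members rose and 8 fell, against 11.8% and 9.7% of all genes tested. R342C ID went furthest the other way, since 0 members rose and 8 fell, against 10% and 13.3% of all genes tested. Few members moved in S354F ID, where 3 members rose and 2 fell, against 5.49% and 4.31% of all genes tested. The same held in R377C ID, where 2 members rose and 3 fell, against 4.67% and 3.43% of all genes tested. In WT IAA 7 members rose and 10 fell, against 9.96% and 10.7% of all genes tested. Some rises on shifted chromosomes were not called with each chromosome set to its own median. They were Sox2, Tfcp2l1, Prdm14 and Sall1 in R448Q ID, and Tfcp2l1, Prdm14 and Nr5a2 in K365T ID. The others were Tfcp2l1 and Prdm14 in Q418R ID, and Klf2, Zfp42 and Sall1 in H455R ID. Members called in either direction then numbered 17 in R448Q ID, 13 in K365T ID, 12 in Q418R ID and 14 in H455R ID. These counts include members called only after centring, such as Gbx2 and Fgf4 in R448Q ID. In bulk RNA of this kind, fewer cells of a type and less RNA per cell cannot be told apart.

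In every comparison the normalised counts of the called members did not overlap between the pairs of libraries. The calls were made on these same values, so this is no separate support for them. The members' share of calls passed the background in most comparisons, but their changes were not larger. The median absolute log2 fold change of the members was below that of all genes tested in 9 of 11 comparisons, for example 0.33 against 0.37 in R448Q ID. It was above in WT IAA (0.30 against 0.22) and H455R ID (0.24 against 0.22). The part that their high abundance plays in the share of calls was not tested. The median log2 fold change of the members was 0.21 in R448Q ID and −0.15 in R342C ID, where the median of all genes was −0.0094 and −0.026. Of the 128 calls of a member in a comparison, 69 remained when each library of the pair of groups was left out in turn. Among these, 11 rose and 3 fell in R448Q ID, 7 and 3 in K365T ID, 4 and 5 in H455R ID, and 0 and 0 in R377C ID. Where a named gene's call below did not remain, a library whose omission ended it is given, in most cases with the largest adjusted p.

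**Figure D1:**
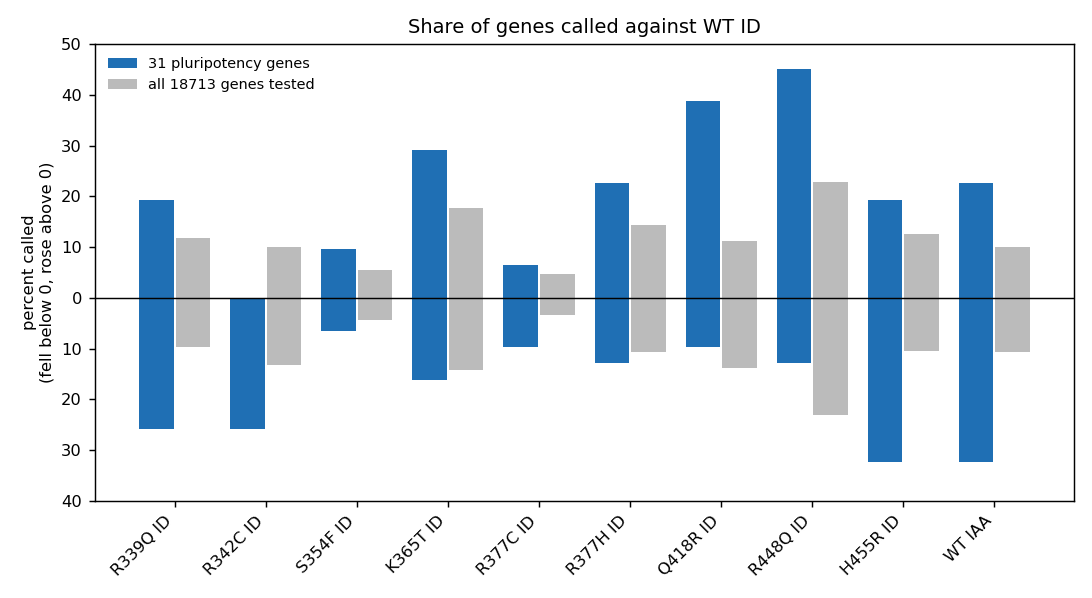
Bars show the percent of the 31 members (blue) and of all 18713 genes tested (grey) that rose (above 0) or fell (below 0) against WT ID, for each of 9 mutant groups and WT IAA. The members' bars for rising genes are tallest in R448Q ID (14 of 31) and Q418R ID (12 of 31), and no member rose in R342C ID.

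**Figure D2:**
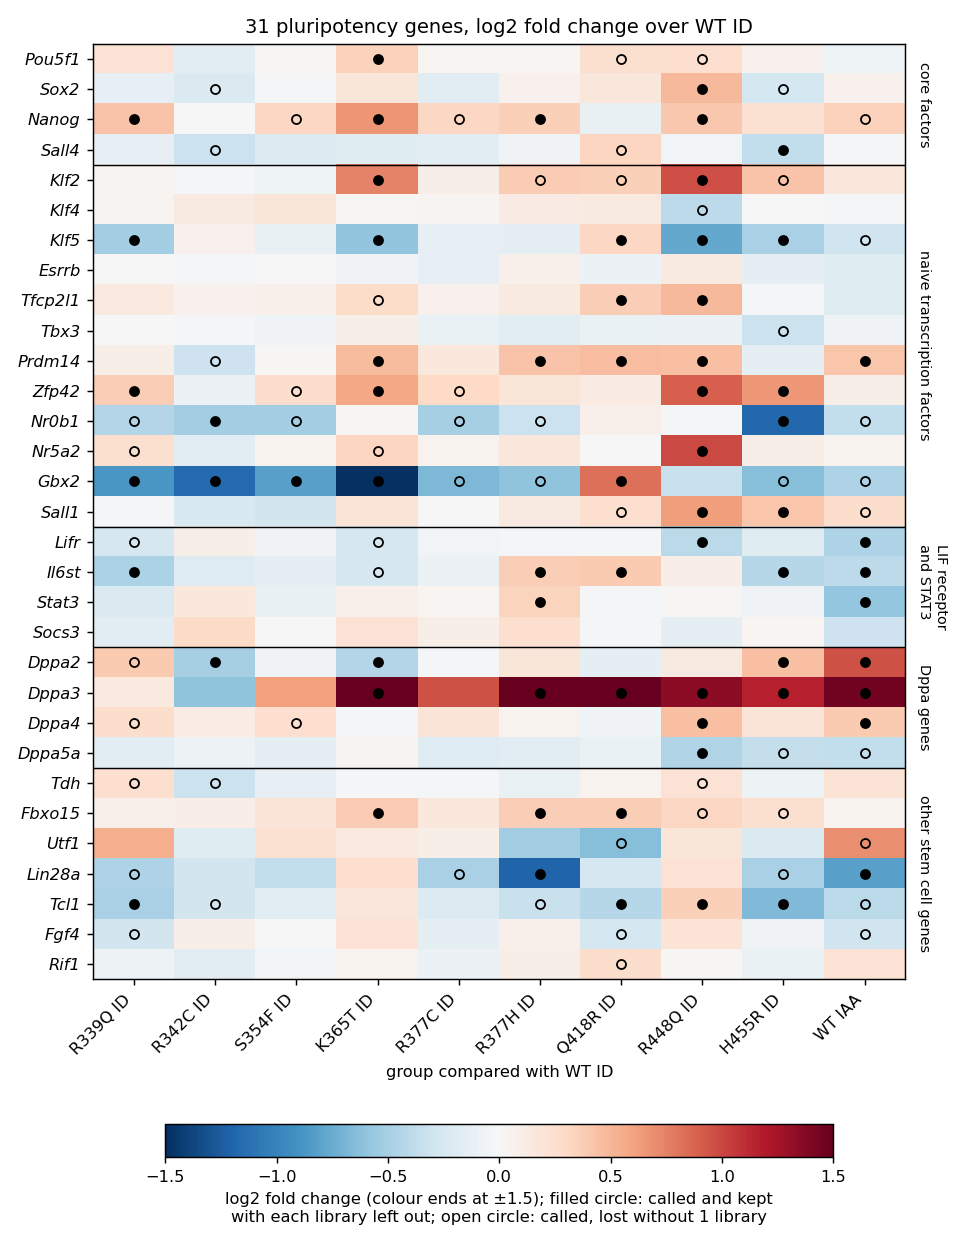
Each cell gives the log2 fold change of a member (rows, by role) in a mutant group or WT IAA (columns) against WT ID, from blue (lower) to red (higher), with colour ending at ±1.5. A filled circle marks a call that remained with each library left out and an open circle one that did not, and Nanog and Zfp42 show circles on red, Gbx2 and Nr0b1 mostly on blue, and Esrrb and Socs3 none.

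Among the core factors, Nanog rose in 6 of 9 mutant groups and fell in none, while Pou5f1 rose in 3. Nanog, a homeodomain protein whose level varies between naive cells (chr6:122707489-122714633, plus strand, GRCm38), had 58454 and 55842 normalised counts in K365T ID, 50734 and 46878 in R339Q ID, 46344 and 49375 in R448Q ID and 44718 and 48406 in R377H ID, against 35872 and 36562 in WT ID. Every one of these libraries lay above both WT ID libraries. In TPM the mean of Nanog was 1214 in WT ID and 1383 in WT untreated. The log2 fold change was 0.66 ± 0.083 (adjusted p = 8.22e-06) in K365T ID, 0.43 ± 0.083 (adjusted p = 9.88e-04) in R339Q ID, 0.40 ± 0.083 (adjusted p = 5.44e-04) in R448Q ID and 0.36 ± 0.083 (adjusted p = 0.003) in R377H ID. Other calls did not remain on omission of some library. S354F ID gave 0.32 ± 0.083 (adjusted p = 0.0199, reaching 0.19 on omission of S354F ID replicate 2 or either WT ID library). For R377C ID the log2 fold change was 0.31 ± 0.083 (adjusted p = 0.0262, above 0.05 on omission of any of the 4 libraries and at most 0.212). WT IAA had 45048 and 46863 normalised counts. In WT IAA Nanog stood at 0.34 ± 0.083 (adjusted p = 0.00654, reaching 0.0704 on omission of WT IAA replicate 2 or WT ID replicate 1). Q418R ID was the only group with a mean below WT ID, at 31037 and 36378 counts and −0.11 ± 0.083 (adjusted p = 0.381). Nanog lies on chromosome 6, where the median log2 fold change of the genes tested was −0.46 in that group, and with each chromosome set to its own median the value became 0.36 (adjusted p = 0.00525).

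Pou5f1 was among the steadiest members. It had 23159 and 25674 normalised counts in K365T ID, against 19161 and 19246 in WT ID, a log2 fold change of 0.34 ± 0.078 (adjusted p = 0.00209). Its rises in R448Q ID and Q418R ID were smaller. R448Q ID gave 0.26 ± 0.078 (adjusted p = 0.011, reaching 0.0602 on omission of R448Q ID replicate 2 or WT ID replicate 1). For Q418R ID the log2 fold change was 0.24 ± 0.078 (adjusted p = 0.0293, reaching 0.279 on omission of Q418R ID replicate 2 or either WT ID library). In the other 6 mutant groups and WT IAA the values ran from −0.16 ± 0.078 in R342C ID to 0.22 ± 0.078 in R339Q ID with no call. Sox2 had 23969.6 and 22710.1 normalised counts in R448Q ID, against 16551 and 16642 in WT ID, both R448Q ID libraries being higher, with a log2 fold change of 0.49 ± 0.077 (adjusted p = 3.08e-05). Chromosome 3, which holds Sox2, was shifted by 0.45 there, and with that shift removed the value was 0.025 (adjusted p = 0.83). Sox2 fell in H455R ID and R342C ID. In H455R ID Sox2 stood at −0.26 ± 0.077 (adjusted p = 0.0194, reaching 0.275 on omission of H455R ID replicate 2 or either WT ID library). R342C ID gave −0.22 ± 0.077 (adjusted p = 0.0497, reaching 0.317 on omission of R342C ID replicate 1 or either WT ID library). Sall4, a zinc finger protein that binds AT-rich DNA, had 18333 and 17949.8 counts in H455R ID, against 24081 and 22923 in WT ID, a log2 fold change of −0.37 ± 0.080 (adjusted p = 0.00193). It also fell in R342C ID and rose in Q418R ID. For R342C ID the log2 fold change was −0.32 ± 0.080 (adjusted p = 0.00697, reaching 0.0658 on omission of WT ID replicate 1). In Q418R ID Sall4 stood at 0.32 ± 0.080 (adjusted p = 0.00506, reaching 0.0776 on omission of Q418R ID replicate 2 or WT ID replicate 2). In R342C ID and H455R ID the core factors that moved, Sox2 and Sall4, thus both fell, and in R448Q ID the 3 that moved, Pou5f1, Sox2 and Nanog, all rose.

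Among the naive transcription factors, the 12 genes gave 26 rises and 20 falls over 108 pairs of gene and mutant group. The 9 mutant groups share the WT ID pair, so that a gene's direction in several groups is not independent evidence. Zfp42, which encodes REX1 and is a widely used marker of the naive state (chr8:43295063-43306980, minus strand), rose in 6 mutant groups and fell in none. It had 29244 and 31076 normalised counts in R448Q ID, 25989 and 24799 in H455R ID, 25443 and 23108 in K365T ID and 21546 and 20349 in R339Q ID, against 15595 and 16810.2 in WT ID. All 8 mutant libraries were higher than both WT ID libraries. The log2 fold changes were 0.90 ± 0.071 (adjusted p = 7.51e-09), 0.65 ± 0.071 (adjusted p = 2.92e-06), 0.58 ± 0.071 (adjusted p = 5.63e-06) and 0.37 ± 0.071 (adjusted p = 9.24e-04) in the same order. Chromosome 8, which holds Zfp42, was itself shifted by 0.45 in R448Q ID, 0.47 in H455R ID and 0.20 in K365T ID. With these shifts removed Zfp42 stood at 0.45 (adjusted p = 4.86e-05), 0.18 (adjusted p = 0.0818) and 0.39 (adjusted p = 5.11e-04). It also rose in R377C ID and S354F ID. R377C ID gave 0.29 ± 0.071 (adjusted p = 0.0135, reaching 0.169 on omission of either R377C ID library or WT ID replicate 1). For S354F ID the log2 fold change was 0.27 ± 0.071 (adjusted p = 0.0225, reaching 0.223 on omission of either S354F ID library or WT ID replicate 1). In WT IAA, with 17343 and 17208 counts, the log2 fold change was 0.093 ± 0.071 (adjusted p = 0.405). In TPM WT ID had the lowest mean of the 12 groups for Zfp42, 646, against 740 in WT untreated.

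Klf2, a Krüppel-like factor that sustains naive cells when MEK is inhibited, also lies on chromosome 8. It had 16772 and 17661 normalised counts in R448Q ID and 14384 and 15041 in K365T ID, against 8180.2 and 9463 in WT ID, and all 4 mutant libraries were higher. The log2 fold change was 0.97 ± 0.11 (adjusted p = 1.06e-06) in R448Q ID and 0.74 ± 0.11 (adjusted p = 6.93e-05) in K365T ID. These became 0.52 (adjusted p = 7.92e-04) and 0.55 (adjusted p = 0.00115) with the shift of the chromosome removed. In H455R ID the value of 0.43 ± 0.11 (adjusted p = 0.0107, reaching 0.149 on omission of H455R ID replicate 1 or WT ID replicate 1) changed to −0.040 (adjusted p = 0.854) on removing it. Klf2 also rose in R377H ID and Q418R ID. In R377H ID Klf2 stood at 0.38 ± 0.11 (adjusted p = 0.0191, reaching 0.205 on omission of either R377H ID library or WT ID replicate 1). Q418R ID gave 0.36 ± 0.11 (adjusted p = 0.027, reaching 0.251 on omission of either Q418R ID library or WT ID replicate 1). Klf5, which acts beside KLF2 and KLF4 in self-renewal, moved the other way in most of its calls. It had 10052 and 10608 counts in R448Q ID, 11415 and 12006 in K365T ID, 12115 and 12571 in R339Q ID and 13374 and 11905 in H455R ID, against 17416 and 17797 in WT ID. These 8 libraries were all lower, with log2 fold changes of −0.77 ± 0.067 (adjusted p = 2.14e-08), −0.59 ± 0.067 (adjusted p = 2.27e-06), −0.51 ± 0.067 (adjusted p = 1.94e-05) and −0.48 ± 0.067 (adjusted p = 3.43e-05). In Q418R ID, with 21237 and 22386 counts, Klf5 rose by 0.31 ± 0.067 (adjusted p = 0.00196). In WT IAA it fell, −0.29 ± 0.067 (adjusted p = 0.00408, reaching 0.0526 on omission of WT IAA replicate 2). Klf4, a direct STAT3 target, fell in R448Q ID, −0.39 ± 0.11 (adjusted p = 0.00552, reaching 0.0942 on omission of R448Q ID replicate 1 or WT ID replicate 2). Its values in the other mutant groups and WT IAA lay between −0.013 ± 0.11 and 0.18 ± 0.11 with no call.

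Gbx2, a homeobox gene downstream of STAT3 (chr1:89927956-89931179, minus strand), fell in 7 of 9 mutant groups and rose in 1. It had 617 and 495 normalised counts in K365T ID, 833 and 595 in R342C ID, 769 and 967 in R339Q ID and 867 and 920.2 in S354F ID, against 1431 and 1735 in WT ID. All of these libraries were lower than both WT ID libraries, which themselves differed. The log2 fold change was −1.51 ± 0.15 (adjusted p = 4.72e-07) in K365T ID, −1.16 ± 0.15 (adjusted p = 2.84e-05) in R342C ID, −0.87 ± 0.15 (adjusted p = 3.12e-04) in R339Q ID and −0.82 ± 0.15 (adjusted p = 0.00128) in S354F ID. It also fell in 3 other mutant groups and WT IAA, where the calls did not remain without some library. For R377C ID the log2 fold change was −0.67 ± 0.15 (adjusted p = 0.00699, reaching 0.125 on omission of R377C ID replicate 2 or WT ID replicate 2). In H455R ID Gbx2 stood at −0.64 ± 0.15 (adjusted p = 0.00364, reaching 0.0679 on omission of H455R ID replicate 2 or WT ID replicate 2). R377H ID gave −0.60 ± 0.15 (adjusted p = 0.00488, reaching 0.085 on omission of WT ID replicate 2). For WT IAA the log2 fold change was −0.47 ± 0.15 (adjusted p = 0.0308, reaching 0.27 on omission of either WT IAA library or WT ID replicate 2). Q418R ID stood alone above WT ID, with 2805 and 2788 counts and a log2 fold change of 0.83 ± 0.15 (adjusted p = 3.74e-04). R448Q ID had 1258 and 1248 counts, below WT ID, at −0.33 ± 0.15 (adjusted p = 0.0776). In TPM the mean of Gbx2 was 54.4 in WT ID and 23.6 in WT untreated. Chromosome 1, which holds Gbx2, was shifted by 0.47 in R448Q ID, 0.27 in K365T ID and 0.24 in Q418R ID. With these removed Gbx2 stood at −0.82 (adjusted p = 1.01e-04), −1.79 (adjusted p = 3.56e-08) and 0.59 (adjusted p = 0.00483). The antisense transcript D130058E05Rik shares 946 of the 2177 exonic bases of Gbx2 and had 71.5 to 189 normalised counts. The strand setting of the counting is not given here, so reads of the pair cannot be told apart.

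Nr0b1, which encodes the orphan receptor DAX1 that holds OCT4 activity in check (chrX:86191764-86195947, plus strand), fell in 6 mutant groups and rose in none. It had 1575 and 1468 normalised counts in H455R ID and 2471 and 2327 in R342C ID, against 3561 and 3301 in WT ID. The H455R ID libraries held the lowest values of all 22, with a log2 fold change of −1.17 ± 0.10 (adjusted p = 2.38e-07), and R342C ID stood at −0.52 ± 0.10 (adjusted p = 0.00173). The other falls did not remain on omission of some library. In S354F ID Nr0b1 stood at −0.51 ± 0.10 (adjusted p = 0.00317, reaching 0.0631 on omission of S354F ID replicate 1). R377C ID gave −0.50 ± 0.10 (adjusted p = 0.0047, reaching 0.0665 on omission of R377C ID replicate 1 or WT ID replicate 1). For R339Q ID the log2 fold change was −0.44 ± 0.10 (adjusted p = 0.00473, reaching 0.0593 on omission of WT ID replicate 1). In R377H ID Nr0b1 stood at −0.32 ± 0.10 (adjusted p = 0.0275, reaching 0.223 on omission of R377H ID replicate 1 or either WT ID library). WT IAA gave −0.37 ± 0.10 (adjusted p = 0.0154, reaching 0.307 on omission of WT IAA replicate 2 or WT ID replicate 1). In K365T ID, Q418R ID and R448Q ID Nr0b1 was within 0.081 of WT ID on the log2 scale, with no call. In TPM WT ID had the highest mean of the 12 groups for Nr0b1, 142.8, against 94.7 in WT untreated. Of the mutant groups in which Nr0b1 fell against WT ID, only H455R ID, at 64.4 TPM, had a mean below WT untreated. The falls in the other mutant groups are thus relative to a high WT ID pair.

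Prdm14 encodes a PR-domain protein that restrains FGF signalling and the DNA methyltransferase genes. It had 1727 and 1583 normalised counts in K365T ID, 1648 and 1635 in Q418R ID, 1699 and 1564 in R448Q ID and 1654 and 1537 in R377H ID, against 1148 and 1231 in WT ID. All 8 mutant libraries were higher, and so were those of WT IAA, with 1517 and 1668. The log2 fold change was 0.48 ± 0.088 (adjusted p = 3.81e-04) in K365T ID, 0.46 ± 0.088 (adjusted p = 5.95e-04) in Q418R ID, and 0.45 ± 0.088 (adjusted p = 2.71e-04) in R448Q ID. It was 0.42 ± 0.088 (adjusted p = 0.00125) in R377H ID and 0.42 ± 0.088 (adjusted p = 0.00221) in WT IAA. Prdm14 lies on chromosome 1 too, and with its shift removed the value was 0.20 (adjusted p = 0.096) in K365T ID, 0.23 (adjusted p = 0.0635) in Q418R ID and −0.033 (adjusted p = 0.796) in R448Q ID. In R377H ID and WT IAA the shift of that chromosome was −0.012 and 0.034. Prdm14 fell in R342C ID, −0.31 ± 0.088 (adjusted p = 0.0157, reaching 0.195 on omission of R342C ID replicate 2 or WT ID replicate 2). Nr5a2, the orphan receptor LRH-1, stood out in R448Q ID with 12336 and 11248 counts, against 5728 and 6159.6 in WT ID. The log2 fold change was 0.99 ± 0.079 (adjusted p = 7.81e-09) there, and 0.50 (adjusted p = 1.56e-05) with chromosome 1 centred. It also rose in K365T ID and R339Q ID. For K365T ID the log2 fold change was 0.32 ± 0.079 (adjusted p = 0.00381, reaching 0.0685 on omission of K365T ID replicate 1 or WT ID replicate 1). In R339Q ID Nr5a2 stood at 0.24 ± 0.079 (adjusted p = 0.0386, above 0.05 on omission of any of the 4 libraries and at most 0.263). In K365T ID centring left 0.046 (adjusted p = 0.674).

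Tfcp2l1, a CP2-family factor and STAT3 target, rose in R448Q ID, Q418R ID and K365T ID. R448Q ID gave 0.48 ± 0.087 (adjusted p = 1.28e-04). For Q418R ID the log2 fold change was 0.37 ± 0.087 (adjusted p = 0.00396). In K365T ID Tfcp2l1 stood at 0.27 ± 0.087 (adjusted p = 0.0202, above 0.05 on omission of any of the 4 libraries and at most 0.0952). It had 100626 and 102345 normalised counts in R448Q ID, against 72905 and 72334 in WT ID. These are the 3 groups in which chromosome 1 was shifted up, and with the shifts removed Tfcp2l1 stood at −0.0048 (adjusted p = 0.972), 0.13 (adjusted p = 0.361) and −0.0033 (adjusted p = 0.984). Sall1, a zinc finger relative of SALL4 on chromosome 8, likewise rose in R448Q ID, 0.62 ± 0.090 (adjusted p = 1.15e-05), and H455R ID, 0.42 ± 0.090 (adjusted p = 0.00214). These groups had the largest shifts of chromosome 8, and Sall1 stood at 0.18 (adjusted p = 0.114) and −0.049 (adjusted p = 0.761) with it removed. It also rose in Q418R ID and WT IAA. Q418R ID gave 0.26 ± 0.090 (adjusted p = 0.0435, above 0.05 on omission of any of the 4 libraries and at most 0.209). For WT IAA the log2 fold change was 0.26 ± 0.090 (adjusted p = 0.0445, above 0.05 on omission of any of the 4 libraries and at most 0.243). Esrrb, the orphan nuclear receptor that GSK3 inhibition sustains, passed the test against WT ID in no mutant group and not in WT IAA. Its normalised counts ran from 26562 to 34121 over the 22 treated libraries, with log2 fold changes between −0.19 ± 0.071 in WT IAA and 0.14 ± 0.071 in R448Q ID. Tbx3, a T-box factor, fell in H455R ID alone, −0.32 ± 0.074 (adjusted p = 0.00388, reaching 0.0611 on omission of H455R ID replicate 2).

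Shifts of whole chromosomes touched many members. A shift is the median log2 fold change of the genes of a chromosome minus that of all genes, and 32 values of a member against WT ID lay on a chromosome shifted by more than 0.15. Chromosome 11 was shifted by 0.54 in R377H ID and 0.38 in K365T ID, chromosome 3 by 0.45 in R448Q ID, and chromosome 6 by −0.46 in Q418R ID, beside the values for chromosomes 1 and 8 above. Of the 32 values 22 were called. Of these, 9 were called the same way once each chromosome was set to its own median, 12 were not called and 1, Stat3 in R377H ID, was called the other way. The 9 were Klf2, Zfp42, Gbx2 and Dppa2 in K365T ID, Gbx2 and Dppa3 in Q418R ID, and Klf2, Zfp42 and Nr5a2 in R448Q ID. Another 5 values became calls, namely Stat3 in K365T ID (−0.29), Nanog (0.36) and Nr5a2 (−0.23) in Q418R ID, and Gbx2 (−0.82) and Fgf4 (0.38) in R448Q ID. Nr0b1, Klf5, Pou5f1, Lin28a and Dppa4 had no such shift behind their calls against WT ID, save a shift of −0.17 on chromosome 16 in K365T ID, where Dppa4 was not called.

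**Figure D3:**
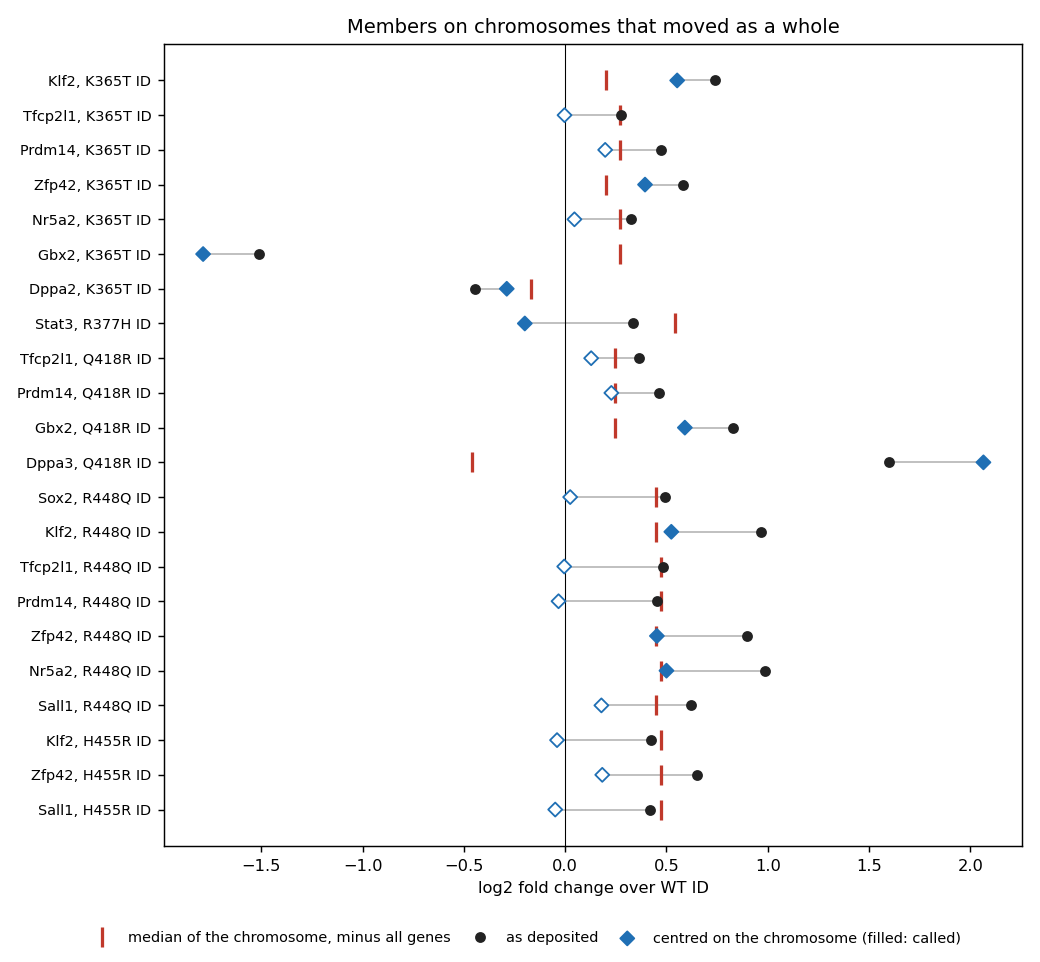
For the 22 called members on chromosomes shifted by more than 0.15, black points give the log2 fold change against WT ID, red ticks the shift of the chromosome, and blue diamonds the value with the shift removed, filled where still called. Zfp42 and Klf2 in R448Q ID stay above 0 and filled, whereas Tfcp2l1 there moves to about 0.

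**Figure D4:**
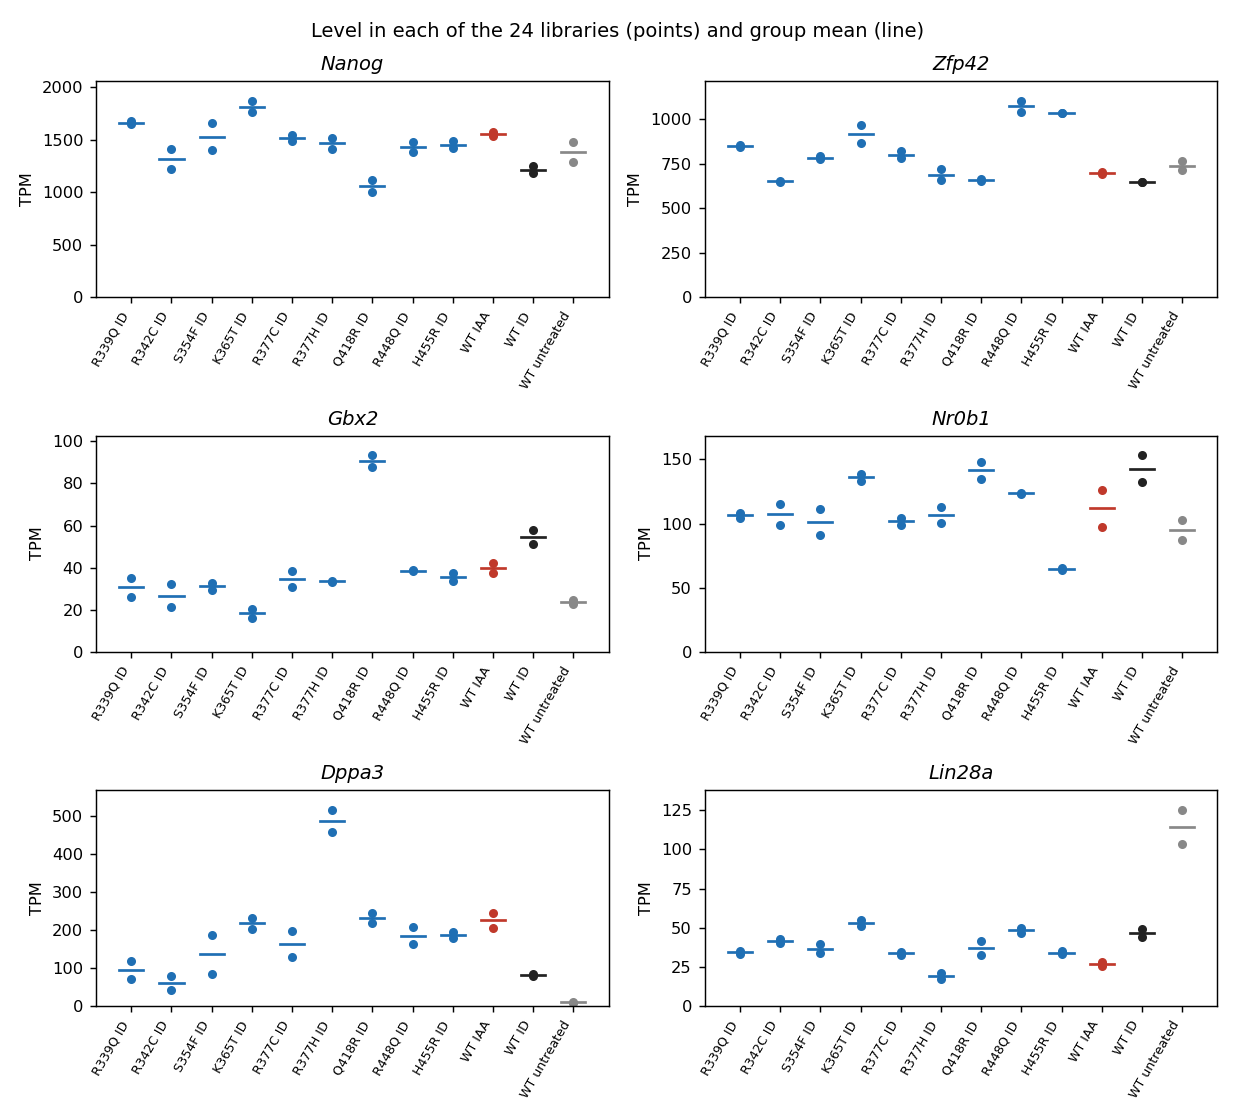
TPM of 6 members in each library, with mutant groups left, then WT IAA, WT ID and WT untreated; points are libraries and lines their means (n = 2). Gbx2 in Q418R ID and Dppa3 in R377H ID lie above all other groups, and Nr0b1 is lowest in H455R ID.

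Of the LIF branch, the receptor genes and Stat3 were lower in WT IAA than in WT ID. Against WT ID, Stat3 rose only in R377H ID, where it fell once its chromosome was centred. Stat3, the transcription factor activated by LIF, had 4725 and 4948 normalised counts in WT IAA, against 7278 and 7153 in WT ID. This was the lowest pair among the 11 treated groups, with a log2 fold change of −0.58 ± 0.076 (adjusted p = 3.81e-05). Il6st, the shared receptor chain gp130, had 5484 and 5202 counts in WT IAA, against 7193 and 6881 in WT ID, at −0.40 ± 0.072 (adjusted p = 7.09e-04). Lifr, the LIF receptor itself, had 6466 and 6928 counts in WT IAA, against 9189 and 9258 in WT ID, a change of −0.46 ± 0.070 (adjusted p = 1.51e-04). All 3 genes had non-overlapping libraries. WT IAA and WT ID also differ in doxycycline. In TPM the means of Il6st were 36.5 in WT IAA, 47.7 in WT ID and 35.3 in WT untreated. Those of Stat3 were 38.5, 56.9 and 44.8, and those of Lifr 47.2, 64.3 and 55.8, in the same order. Among the mutants Il6st moved both ways. It had 9482 and 8976 counts in Q418R ID and 9069 and 9168 in R377H ID, where it rose by 0.39 ± 0.072 (adjusted p = 4.90e-04) and 0.37 ± 0.072 (adjusted p = 6.57e-04). It had 4909 and 5189 in R339Q ID and 5641 and 4857 in H455R ID, where it changed by −0.48 ± 0.072 (adjusted p = 9.18e-05) and −0.43 ± 0.072 (adjusted p = 2.47e-04). In K365T ID it stood at −0.26 ± 0.072 (adjusted p = 0.0102, reaching 0.0885 on omission of WT ID replicate 1). Lifr fell in 3 mutant groups and rose in none. In R448Q ID Lifr stood at −0.40 ± 0.070 (adjusted p = 9.48e-05). K365T ID gave −0.25 ± 0.070 (adjusted p = 0.0104, reaching 0.0599 on omission of either WT ID library). For R339Q ID the log2 fold change was −0.25 ± 0.070 (adjusted p = 0.0154, above 0.05 on omission of any of the 4 libraries and at most 0.109). Stat3 in R377H ID had 9068 and 9115 counts and a log2 fold change of 0.33 ± 0.076 (adjusted p = 0.0028). Chromosome 11 as a whole was shifted by 0.54, and with the shift removed Stat3 stood at −0.20 (adjusted p = 0.0485). Socs3, the feedback inhibitor and a direct STAT3 target, passed the test in no mutant group. Its values ran from −0.16 ± 0.14 in R339Q ID to 0.29 ± 0.14 in R342C ID, with −0.31 ± 0.14 (adjusted p = 0.124) in WT IAA.

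The other genes of this pathway were taken from a list of 18 (cytokine, kinases, adaptors, other STAT proteins and targets). In WT IAA 2 rose and 2 fell, against 9.96% and 10.7% of all genes tested, and 3 of these calls remained with each library left out. In R448Q ID 4 rose and 10 fell, against 22.8% and 23.1% of all genes tested, the highest background of all comparisons, and 9 calls remained. Over the other mutant groups 4 rose and 4 fell in R339Q ID (all genes 11.8% and 9.7%). In R342C ID 4 rose and 0 fell (10% and 13.3%), and in S354F ID 2 rose and 1 fell (5.49% and 4.31%). In K365T ID 5 rose and 2 fell (17.7% and 14.2%), and in R377C ID 1 rose and 0 fell (4.67% and 3.43%). In R377H ID 4 rose and 3 fell (14.4% and 10.7%). In Q418R ID 2 rose and 5 fell (11.2% and 13.8%), and in H455R ID 4 rose and 3 fell (12.6% and 10.5%). Lif, the cytokine gene, rose in WT IAA, 0.62 ± 0.13 (adjusted p = 0.00252), and R339Q ID, 0.85 ± 0.13 (adjusted p = 1.27e-04). It also rose in R342C ID, 0.73 ± 0.13 (adjusted p = 8.15e-04), and S354F ID, 0.71 ± 0.13 (adjusted p = 0.00163). In R377H ID, where chromosome 11 with Lif was shifted up, it rose by 0.54 ± 0.13 (adjusted p = 0.00492, reaching 0.0647 on omission of R377H ID replicate 1 or WT ID replicate 2). In R448Q ID Lif fell, −0.34 ± 0.13 (adjusted p = 0.0432, reaching 0.273 on omission of R448Q ID replicate 2 or either WT ID library). Jak1, the receptor-bound kinase, rose in WT IAA, 0.41 ± 0.067 (adjusted p = 2.74e-04), and in R339Q ID, 0.35 ± 0.067 (adjusted p = 8.18e-04). It also rose in H455R ID, 0.33 ± 0.067 (adjusted p = 0.00129), K365T ID, 0.31 ± 0.067 (adjusted p = 0.0017), and R377H ID, 0.30 ± 0.067 (adjusted p = 0.00217). In R448Q ID it rose by 0.23 ± 0.067 (adjusted p = 0.00946, reaching 0.065 on omission of R448Q ID replicate 2). In S354F ID it rose by 0.25 ± 0.067 (adjusted p = 0.0216, reaching 0.17 on omission of S354F ID replicate 2 or either WT ID library). Pim3, a kinase gene, fell in R448Q ID, −1.22 ± 0.13 (adjusted p = 2.86e-07). The median log2 fold change of the list was −0.32 in R448Q ID and lay between −0.040 and 0.097 in the other mutant groups.

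The Dppa genes, named as developmental pluripotency associated, held the largest changes of the set. Dppa3, which encodes STELLA, a maternal factor that acts on DNA methylation (chr6:122626410-122630272, plus strand), rose in 5 mutant groups and fell in none. It had 5782 and 6579 normalised counts in R377H ID, 3017 and 2864 in Q418R ID, 2528 and 2944 in K365T ID, 2178 and 2784 in R448Q ID and 2137 and 2236 in H455R ID, against 966 and 978 in WT ID. WT IAA had 2418 and 2906. All of these libraries lay above both WT ID libraries, and the R377H ID pair lay above every other library. The log2 fold change was 2.67 ± 0.30 (adjusted p = 1.74e-06) in R377H ID, 1.60 ± 0.30 (adjusted p = 5.53e-04) in Q418R ID, 1.49 ± 0.30 (adjusted p = 7.96e-04) in K365T ID and 1.34 ± 0.30 (adjusted p = 0.00104) in R448Q ID. It was 1.17 ± 0.30 (adjusted p = 0.00745) in H455R ID and 1.45 ± 0.30 (adjusted p = 0.002) in WT IAA. Replicates of the other groups differed widely, as in R342C ID (450.1 and 914) and S354F ID (1032 and 2161). The log2 fold changes of 0.62 ± 0.30 in S354F ID and 0.95 ± 0.30 in R377C ID passed no test (adjusted p = 0.225 and 0.0563). Chromosome 6, which holds Dppa3 and Nanog, was shifted by −0.46 in Q418R ID, so that Dppa3 stood at 2.06 (adjusted p = 7.42e-05) with the shift removed.

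Dppa2 and Dppa4 lie 9671 bases apart on chromosome 16 and encode SAP-domain proteins that work as a pair and activate genes of the 2-cell-like state. Dppa2 had 4614 and 5156 normalised counts in WT IAA, against 2518 and 2511 in WT ID, and Dppa4 had 1785 and 1920.1, against 1351 and 1475. Both rose in WT IAA, Dppa2 by 0.96 ± 0.093 (adjusted p = 1.50e-06) and Dppa4 by 0.39 ± 0.073 (adjusted p = 8.96e-04). Both rose in R339Q ID too. In R339Q ID Dppa2 stood at 0.39 ± 0.093 (adjusted p = 0.00484, reaching 0.0682 on omission of R339Q ID replicate 1). Dppa4 rose there by 0.26 ± 0.073 (adjusted p = 0.0142, reaching 0.17 on omission of R339Q ID replicate 1 or WT ID replicate 1). Elsewhere they did not move together. Dppa2 had 3529 and 3362 counts in H455R ID and rose by 0.45 ± 0.093 (adjusted p = 0.00145), while Dppa4 there stood at 0.19 ± 0.073 with no call. Dppa2 fell in R342C ID, with 1809 and 1762 counts and −0.49 ± 0.093 (adjusted p = 0.00107), and in K365T ID, with 2069 and 1650.1 counts and −0.44 ± 0.093 (adjusted p = 0.00118). Chromosome 16 was shifted by −0.17 in K365T ID, and with it removed Dppa2 stood at −0.29 (adjusted p = 0.0334). Dppa4 rose in R448Q ID, with 1975 and 1877 counts and 0.45 ± 0.073 (adjusted p = 4.64e-05), and in S354F ID. S354F ID gave 0.25 ± 0.073 (adjusted p = 0.0337, above 0.05 on omission of any of the 4 libraries and at most 0.296). In these groups Dppa2 had 0.13 ± 0.093 and −0.049 ± 0.093 with no call. Dppa5a had 26503 and 27003 counts in R448Q ID, against 35753 and 37186 in WT ID, a log2 fold change of −0.45 ± 0.10 (adjusted p = 0.00115). It also fell in H455R ID and WT IAA. For H455R ID the log2 fold change was −0.36 ± 0.10 (adjusted p = 0.013, reaching 0.147 on omission of H455R ID replicate 2 or WT ID replicate 2). In WT IAA Dppa5a stood at −0.37 ± 0.10 (adjusted p = 0.0135, reaching 0.137 on omission of WT IAA replicate 2 or either WT ID library). Nanog, Pou5f1, Dppa3 and Dppa5a have processed copies elsewhere in the mouse genome, and how the counting shared reads among them is not given in the sources used here, so their values are uncertain to that extent.

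Genes of the 2-cell-like state, a rare state of these cultures, moved in some of the same groups. Of 9 such genes tested, 7 rose in WT IAA, 7 in H455R ID, 5 in Q418R ID, 4 in R448Q ID, 3 in R377C ID, 1 in R377H ID and 1 in K365T ID, and none fell. Of all genes tested 9.96% rose in WT IAA, 12.6% in H455R ID, 11.2% in Q418R ID, 22.8% in R448Q ID and 4.67% in R377C ID. The share was 14.4% in R377H ID and 17.7% in K365T ID, so that 1 of 9 was no excess there. With each library left out in turn, 2 of these calls remained in WT IAA (Gm4340 and Zscan4e), 1 in H455R ID (Gm4340) and 0 in each of the other groups, and these named genes were chosen after their values were seen. The summed level of the list was 15.4 and 12.2 TPM in WT IAA, 11.2 and 15.7 in H455R ID and 4.45 and 17.0 in Q418R ID, against 3.11 and 1.21 in WT ID. In R377H ID, where Dppa3 was highest, it was 3.65 and 4.84 TPM. Tcstv1 was at 0 in 11 of 12 groups. The part of these genes in the results for Dppa2, Dppa3 and Dppa4 was not tested.

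Among the other members, Lin28a, Tcl1 and Fbxo15 moved most often. Lin28a, whose protein blocks maturation of let-7 microRNAs (chr4:134003330-134018841, minus strand), had 1186 and 980.2 normalised counts in R377H ID and 1331 and 1493 in WT IAA, against 2279 and 2717 in WT ID. The R377H ID libraries were the lowest of all 22, and the log2 fold change was −1.21 ± 0.13 (adjusted p = 1.42e-06) in R377H ID and −0.82 ± 0.13 (adjusted p = 2.70e-04) in WT IAA. It also fell in R377C ID, H455R ID and R339Q ID. R377C ID gave −0.49 ± 0.13 (adjusted p = 0.0258, reaching 0.262 on omission of either R377C ID library or WT ID replicate 2). For H455R ID the log2 fold change was −0.49 ± 0.13 (adjusted p = 0.0114, reaching 0.148 on omission of H455R ID replicate 2 or WT ID replicate 2). In R339Q ID Lin28a stood at −0.47 ± 0.13 (adjusted p = 0.0161, reaching 0.186 on omission of R339Q ID replicate 2 or WT ID replicate 2). Tcl1, a coactivator of the kinase AKT, had 2616 and 2410.0 counts in H455R ID, 2817 and 2859 in R339Q ID and 2875 and 3002 in Q418R ID. It had 5229 and 4942 in R448Q ID, against 4205 and 3739 in WT ID. It fell in H455R ID, −0.66 ± 0.085 (adjusted p = 1.60e-05), R339Q ID, −0.48 ± 0.085 (adjusted p = 4.32e-04), and Q418R ID, −0.43 ± 0.085 (adjusted p = 8.79e-04). It rose in R448Q ID, 0.36 ± 0.085 (adjusted p = 0.00183). Its falls in WT IAA, R377H ID and R342C ID did not remain on omission of some library. WT IAA gave −0.41 ± 0.085 (adjusted p = 0.00217, reaching 0.0727 on omission of WT IAA replicate 2). For R377H ID the log2 fold change was −0.34 ± 0.085 (adjusted p = 0.00594, reaching 0.106 on omission of R377H ID replicate 1 or WT ID replicate 1). In R342C ID Tcl1 stood at −0.28 ± 0.085 (adjusted p = 0.0251, reaching 0.234 on omission of either R342C ID library or WT ID replicate 1).

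Fbxo15, which encodes an F-box protein and was an early reporter of pluripotency, rose in 5 mutant groups and fell in none. It had 10860.1 and 11886 normalised counts in K365T ID, 10968 and 11713 in R377H ID and 11213 and 11329 in Q418R ID, against 8327 and 9211 in WT ID, and these 6 mutant libraries were all higher. The log2 fold changes were modest, 0.38 ± 0.077 (adjusted p = 9.01e-04), 0.37 ± 0.077 (adjusted p = 0.00115) and 0.36 ± 0.077 (adjusted p = 0.00152) in that order. R448Q ID gave 0.31 ± 0.077 (adjusted p = 0.00228, reaching 0.0525 on omission of WT ID replicate 1). For H455R ID the log2 fold change was 0.24 ± 0.077 (adjusted p = 0.0268, reaching 0.275 on omission of H455R ID replicate 1 or WT ID replicate 1). Utf1, a chromatin-bound factor, was the least abundant member by normalised counts. It had 1723 and 1689.5 counts in WT IAA and 578 and 798 in Q418R ID, against 1149 and 968 in WT ID. In WT IAA Utf1 stood at 0.69 ± 0.22 (adjusted p = 0.0303, above 0.05 on omission of any of the 4 libraries and at most 0.199). Q418R ID gave −0.63 ± 0.22 (adjusted p = 0.0402, reaching 0.34 on omission of Q418R ID replicate 1 or either WT ID library). Tdh, the threonine dehydrogenase that feeds glycine and folate metabolism in mouse stem cells, rose in R339Q ID and R448Q ID and fell in R342C ID. For R339Q ID the log2 fold change was 0.25 ± 0.074 (adjusted p = 0.0192, reaching 0.221 on omission of R339Q ID replicate 1 or either WT ID library). In R448Q ID Tdh stood at 0.21 ± 0.074 (adjusted p = 0.0236, above 0.05 on omission of any of the 4 libraries and at most 0.103). R342C ID gave −0.32 ± 0.074 (adjusted p = 0.00474, reaching 0.0559 on omission of R342C ID replicate 2). Fgf4, the ligand that these cells make to drive their own ERK signal, fell in WT IAA, R339Q ID and Q418R ID. For WT IAA the log2 fold change was −0.30 ± 0.093 (adjusted p = 0.0275, above 0.05 on omission of any of the 4 libraries and at most 0.186). In R339Q ID Fgf4 stood at −0.28 ± 0.093 (adjusted p = 0.0358, above 0.05 on omission of any of the 4 libraries and at most 0.218). Q418R ID gave −0.26 ± 0.093 (adjusted p = 0.0456, above 0.05 on omission of any of the 4 libraries and at most 0.246). Rif1, a protein of replication timing and telomeres, had 42427 and 41514 counts in Q418R ID, against 34548 and 35466 in WT ID. For Q418R ID the log2 fold change was 0.26 ± 0.077 (adjusted p = 0.0178, above 0.05 on omission of any of the 4 libraries and at most 0.111).

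The untreated cells carry the same degron and the silent transgene, and they were set beside the WT groups to ask how far the wild-type transgene restored the untreated state. Their tables were scaled apart from the others, so values were compared in TPM with no test, and a gene was counted as apart where the libraries did not overlap and the means differed at least 1.5-fold. In WT ID 3 members were higher and 2 lower than in WT untreated, where 20.6% and 6.26% of the 18974 genes compared were. In WT IAA 3 were higher and 3 lower, where 23% and 8.26% of 19214 were. The median log2 ratio of the members was 0.0058 in WT ID and 0.040 in WT IAA, where that of all genes was 0.17 and 0.18. On counts scaled over all 24 libraries the ratios were lower, and 5 and 8 members were apart. Sox2 in WT ID, for example, stood at −0.51, against −0.32 in TPM, and Esrrb in WT IAA at −0.50, against −0.30. Whether the untreated pair was prepared with the other libraries is not stated, so treatment cannot be told apart from a separately prepared set.

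Dppa3 differed most, with 207 and 246 TPM in WT IAA and 84.3 and 79.4 in WT ID, against 11.3 and 9.49 in WT untreated. The log2 ratio was 4.43 in WT IAA and 2.96 in WT ID, so that the gene was above the untreated level with and without the transgene switched on. Lin28a had 25.4 and 28.2 TPM in WT IAA and 44.4 and 49.3 in WT ID, against 104 and 125 in WT untreated, log2 ratios of −2.09 and −1.29. Utf1 had 107 and 104 TPM in WT IAA and 72.9 and 57.1 in WT ID, against 274 and 225 in WT untreated, log2 ratios of −1.24 and −1.94. Both genes were thus below the level of the untreated pair in WT ID. Gbx2 had 42.2 and 37.3 TPM in WT IAA and 51.2 and 57.7 in WT ID, against 22.9 and 24.4 in WT untreated, log2 ratios of 0.75 and 1.20. The level in WT untreated was below that of every other group but K365T ID, whose libraries had 20.3 and 16.0 TPM. Nr0b1 was apart in WT ID, with 153 and 132 TPM, against 103 and 86.8 in WT untreated. Dppa2 was apart in WT IAA alone, with 144 and 159 TPM, against 78.2 and 75.6 in WT untreated, and had 80.1 and 74.3 in WT ID. Tcl1 was apart below, with 136 and 111 TPM in WT IAA, against 204 and 183 in WT untreated. Nanog, Pou5f1, Sox2, Esrrb and Zfp42 had log2 ratios between −0.32 and 0.17 in WT ID and WT IAA, none apart by this rule.

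**Figure D5:**
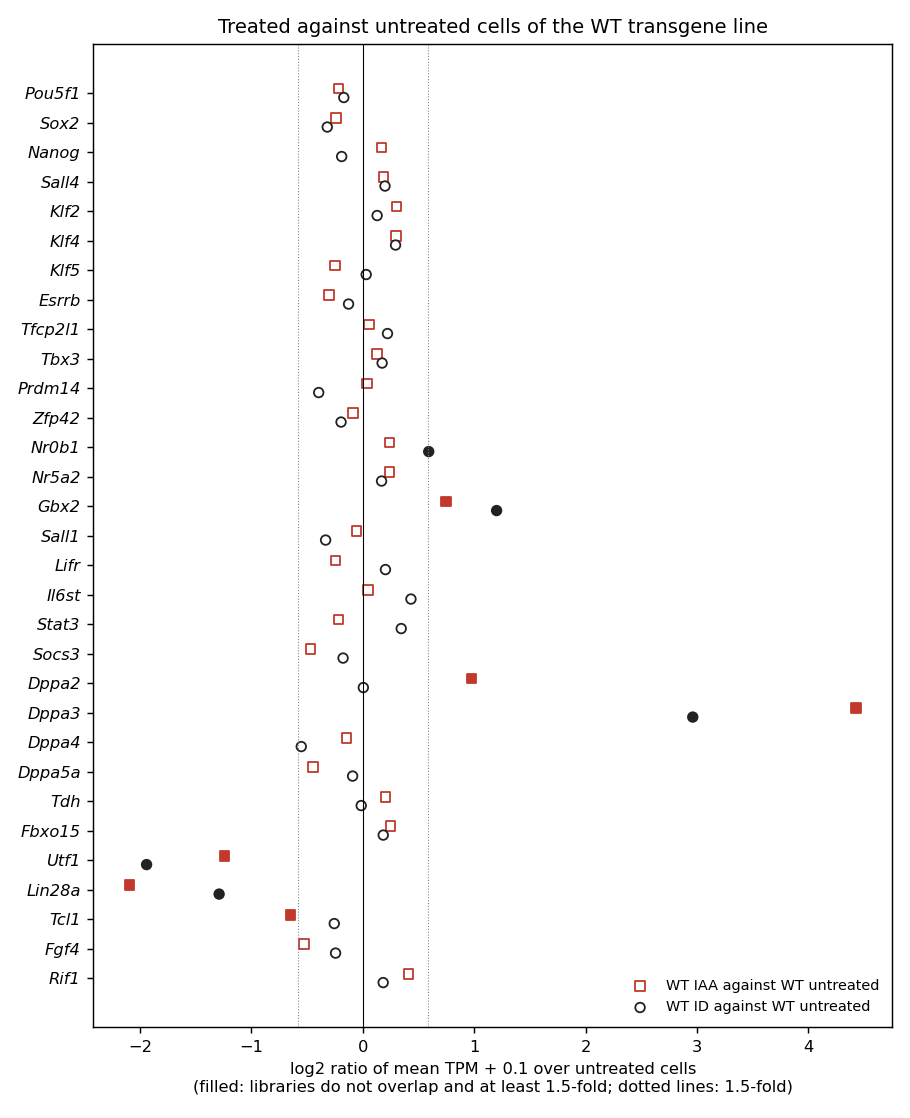
Red squares (WT IAA) and black circles (WT ID) give the log2 ratio of mean TPM over WT untreated for each of the 31 members, filled where the 2 + 2 libraries did not overlap and the means differed at least 1.5-fold. Dppa3 lies at 4.43 in WT IAA and 2.96 in WT ID, Lin28a and Utf1 lie below 0 in both, and most members lie within 1.5-fold of WT untreated.

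R377C and R377H replace the same arginine, and the groups were compared directly to ask whether the substituted residue matters. In R377C ID against R377H ID 1 member rose and 4 fell, against 7.88% and 11.1% of all genes tested (19% in either direction). Dppa3 had 1499 and 2362 normalised counts in R377C ID, against 5782 and 6579 in R377H ID, a log2 fold change of −1.71 ± 0.30 (adjusted p = 3.55e-04). Lin28a had 1787 and 1754 counts in R377C ID, against 1186 and 980.2 in R377H ID, and was higher by 0.71 ± 0.13 (adjusted p = 6.69e-04). Il6st had 6769.5 and 6499 counts in R377C ID, against 9069 and 9168 in R377H ID, at −0.46 ± 0.072 (adjusted p = 1.24e-04). None of these libraries overlapped. Stat3 stood at −0.31 ± 0.076 (adjusted p = 0.00704, reaching 0.0523 on omission of R377C ID replicate 1 or R377H ID replicate 2). It lies on chromosome 11, which was shifted by −0.50 in this comparison, and stood at 0.18 (adjusted p = 0.0862) without the shift. Prdm14 stood at −0.27 ± 0.088 (adjusted p = 0.0398, above 0.05 on omission of any of the 4 libraries and at most 0.219). The other 26 members gave log2 fold changes between −0.29 (Klf2) and 0.61 (Utf1) with no call. An F test of any difference among the 9 mutant groups, which does not use WT ID, called all 31 members, against 76% of all genes tested. The F statistic was highest for Klf5 (53.6, adjusted p = 1.42e-09), and the weakest calls were Socs3 (adjusted p = 0.0484) and Esrrb (adjusted p = 0.0232).

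A further list of 28 other stem cell factors moved in both directions too. In R448Q ID 14 rose and 4 fell, against 22.8% and 23.1% of all genes tested, and 11 of these calls remained with each library left out. Of the 14 rises there, 5 lay on chromosomes shifted up by more than 0.15. In R342C ID 4 rose and 11 fell, against 10% and 13.3% of all genes tested, and 5 calls remained. In WT IAA 3 rose and 4 fell (all genes 9.96% and 10.7%). The counts were 3 and 4 in R339Q ID (11.8% and 9.7%) and 1 and 4 in S354F ID (5.49% and 4.31%). They were 8 and 8 in K365T ID (17.7% and 14.2%), 1 and 2 in R377C ID (4.67% and 3.43%), and 8 and 8 in R377H ID (14.4% and 10.7%). In Q418R ID they were 6 and 4 (11.2% and 13.8%), and in H455R ID 4 and 8 (12.6% and 10.5%). Myc, the growth factor-responsive transcription factor, led in R448Q ID at 1.39 ± 0.24 (adjusted p = 1.00e-04). Epcam, an adhesion protein, led in R342C ID at 0.97 ± 0.12 (adjusted p = 1.76e-05) and in Q418R ID at 1.56 ± 0.12 (adjusted p = 2.68e-08). Lefty1, a Nodal inhibitor, led in R377H ID, at −3.27 ± 0.43 (adjusted p = 1.18e-05). Pecam1, a surface protein of naive cells, led in K365T ID at 1.35 ± 0.088 (adjusted p = 4.11e-09) and lies on chromosome 11, which was shifted there.

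Markers of other cell types moved in some of the same groups. Of 10 primitive endoderm genes tested, 7 rose and 0 fell in R342C ID, where 10% of all genes tested rose, and 3 of these calls remained with each library left out. Their summed level there was 193 and 169 TPM, against 123 and 117 in WT ID. In the other mutant groups 1 to 4 of the 10 rose, where 4.67% (R377C ID) to 22.8% (R448Q ID) of all genes tested did. The highest count, 4, was in K365T ID, where 17.7% of all genes tested rose. Of these, Col4a1 and Col4a2 lie on chromosome 8, which was shifted by 0.20 there. Gata4 rose by 1.29 ± 0.14 (adjusted p = 3.71e-06) in R342C ID, 1.29 ± 0.14 (adjusted p = 4.43e-06) in S354F ID and 0.97 ± 0.14 (adjusted p = 2.59e-05) in K365T ID. It also rose in R339Q ID, R377C ID and R377H ID, and it was called in H455R ID. All of these calls of Gata4 remained with each library left out, and all share the WT ID pair. Over the treated groups the sum of this list ran from 87.0 to 193 TPM, and no gene of it was at 0 in any group. Of 7 trophectoderm genes tested, 7 rose and 0 fell in H455R ID, where 12.6% of all genes tested rose, with a summed level of 173 and 164 TPM, against 91.6 and 70.0 in WT ID. The calls of Krt7, Krt8 and Krt18 remained with each library left out, and those of the other 4 did not. In Q418R ID 3 rose and 1 fell (all genes 11.2% and 13.8%), and in R339Q ID 4 rose and 0 fell (11.8% and 9.7%). In R377H ID 1 rose and 3 fell (14.4% and 10.7%), and in R448Q ID 2 rose and 3 fell (22.8% and 23.1%). Krt7 led in H455R ID at 3.06 ± 0.35 (adjusted p = 3.94e-06), and Elf5 was at 0 in R377H ID, R448Q ID, WT IAA and WT ID. Sums of the trophectoderm list ran from 42.9 to 173 TPM over the treated groups, those of the neural list from 62.7 to 228, of the formative list from 106 to 174, and of the mesendoderm list from 17.4 to 36.9. The fibroblast list of 8 genes, a check for cells of another origin, summed to 1.78 to 14.9 TPM, with Postn, Dcn or Lum at 0 in several groups. Of its 3 genes tested, 3 rose in H455R ID, where 12.6% of all genes tested rose. In WT IAA, R339Q ID, S354F ID, K365T ID, R377C ID and R377H ID 2 rose, where 4.67% (R377C ID) to 17.7% (K365T ID) of all genes tested did. In R342C ID 1 rose (10%). Falls numbered 1 each in K365T ID, R377H ID and Q418R ID and 2 in R448Q ID (all genes 10.7% to 23.1%). The part of these markers in the results for the members was not tested.

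The genes next to the members on the chromosome were also looked up, since a CTCF site can divide neighbours. Their share of calls lay on both sides of the share of all genes tested. Of the flanking genes of called members, 18 of 36 were called in R448Q ID, where 45.8% of all genes tested were, and 13 moved in the direction of the member. Most of these 13 lay beside Sox2, Klf2, Tfcp2l1, Prdm14, Nr5a2 or Sall1. Those members lie on chromosomes 1, 3 and 8, which were shifted up there by 0.47, 0.45 and 0.45. Such shifts were not removed from the counts of flanking genes, so a shared direction cannot be told apart from them. The counts were 11 of 30 in Q418R ID (all genes 25%), 9 of 34 in WT IAA (20.7%) and 9 of 32 in H455R ID (23.1%). They were 8 of 28 in R339Q ID (21.5%), 2 of 10 in R377C ID (8.09%) and 1 of 10 in S354F ID (9.8%). Below the background were 6 of 28 in K365T ID (32%), 5 of 22 in R377H ID (25.1%) and 1 of 16 in R342C ID (23.3%), and also 1 of 10 in R377C ID against R377H ID (19%). The called flanking gene moved against the member in R342C ID and S354F ID, while in the other mutant groups and WT IAA most moved with it. In WT IAA and R339Q ID Dppa2 and Dppa4 were each counted as a flanking gene of the other. Ooep, which lies 7932 bases from Dppa5a and encodes a KH-domain protein of the egg, fell beside it in WT IAA, −0.57 ± 0.082 (adjusted p = 9.83e-05), R448Q ID, −0.84 ± 0.082 (adjusted p = 9.11e-08), and H455R ID, −0.87 ± 0.082 (adjusted p = 5.06e-07). Crybg2, 41974 bases from Lin28a, fell beside it in R377H ID, −0.73 ± 0.098 (adjusted p = 1.33e-05), R377C ID, −0.50 ± 0.098 (adjusted p = 0.00298, reaching 0.0521 on omission of WT ID replicate 1), and R339Q ID, −0.39 ± 0.098 (adjusted p = 0.00734, reaching 0.0864 on omission of WT ID replicate 1). Next to Nr0b1, Gk, 414945 bases away, fell in 4 of the 6 mutant groups in which Nr0b1 fell, for example −0.35 ± 0.087 (adjusted p = 0.00676) in H455R ID. Pola1, on the other side at 7108820 bases, moved against Nr0b1. It rose by 0.38 ± 0.094 in R339Q ID, 0.38 ± 0.094 in S354F ID and 0.41 ± 0.094 in R377H ID. Each of these calls of Gk and Pola1 was lost on omission of WT ID replicate 1, among other libraries. Klf12, 555596 bases from Klf5, stood at 1.01 ± 0.19 (adjusted p = 1.70e-04) in R448Q ID and 0.84 ± 0.19 (adjusted p = 0.00234) in Q418R ID, the groups in which Klf5 fell furthest and rose.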

How the data were processed

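Gene-level RNA-seq values of 24 mouse embryonic stem cell libraries were used, 2 per group. The authors' deposited signal is normalised counts (reads per gene over a size factor), with the 22 treated libraries in a table and the untreated pair in another. The deposited TPM values, in matching tables, are also divided by gene length and scaled to a constant sum per library by the authors. Trim Galore, STAR, DESeq2 and the mm10 build are named in the submitters' processing notes, without versions, and the counter, annotation and strand setting are not stated in the sources. Per the labels' protocols, 500 ng of RNA went into stranded, ribosome-depleted libraries read as 150 bp pairs. In every library 100% of values were whole multiples of 1 step within 0.001, so whole reads (27761749 to 77141117 per library) were recovered for the count tests, and at that depth the least abundant member averaged 1124 normalised counts.

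Normalised counts were taken as log2(count + 1), and 18713 of 55291 genes had the mean of 10 required over 22 libraries. The model (R 4.3.3, limma 3.58.1, lmFit then eBayes with a trend) held a coefficient for each group over all 22 libraries, with 11 residual and 8.13 prior df. Tests were two-sided with Benjamini-Hochberg adjustment per comparison, and ± after a log2 fold change is its standard error. Untreated cells were compared by log2 ratios of mean TPM + 0.1 over genes with a mean of at least 0.5 TPM in the groups compared. Positions, exon overlaps and flanking genes are from GENCODE M21 (GRCm38), and the fit was checked on simulated data. Alternatives were a pseudocount of 5, no filter, TPM, quantile normalisation, edgeR 4.0.16 and DESeq2 1.42.0 on recovered reads, only the groups compared, a replicate block, centring per chromosome or on 100 neighbouring genes, and each library left out. The members and lists were chosen with earlier results of these data known. All members could be named, list genes only where called (at most 4 per comparison, by size), and flanking genes only where they and the member were called; the motifs were chosen with the sequences in view. No column (0) belonged to another series. Values of some list genes are not reported here.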

Additional observations from a re-analysis of the deposited data

Results flagged for a closer look

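R377C ID and R377H ID share the contrast with WT ID, and for 5 members the direct comparison of these groups passed the test (5 of 31 members, where 19% of all genes tested were called). Dppa3 stood at −1.71 and Il6st at −0.46 on the log2 scale in R377C ID against R377H ID, and Lin28a at 0.71. These calls remained with each of the 4 libraries left out. Prdm14 stood at −0.27 (adjusted p = 0.0398, above 0.05 on omission of any of the 4 libraries and at most 0.219) and Stat3 at −0.31 (adjusted p = 0.00704, reaching 0.0523 on omission of R377C ID replicate 1 or R377H ID replicate 2). Chromosome 11, which holds Stat3, was shifted by −0.50 in this comparison, and with the shift removed Stat3 stood at 0.18 (adjusted p = 0.0862) with no call. Line and substitution cannot be told apart here.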

How the results depend on the processing

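Of the 128 calls of a member in a comparison, 55 remained under all 10 alternatives and with each library left out. A pseudocount of 5 ended no call, and DESeq2 ended 1, edgeR 2, the fit of only the groups compared 6, no filter 18, quantile normalisation 20 and TPM 31. TPM moved the median log2 fold change of all genes to −0.17 in R448Q ID, against −0.0094 on normalised counts, and to 0.11, against 0.0078, in R377C ID against R377H ID, so that changes on that scale are relative to these medians. edgeR's quasi-likelihood test called 1618 genes in R377C ID to 8738 in R448Q ID, where limma called 1514 and 8578. Only the groups compared gave 4 members in R342C ID (8 in the report), and DESeq2 and centring per chromosome each gave 8 in R377C ID against R377H ID (5 in the report), and the cause was not tested. At a fold of 2 in place of 1.5, 3 members were apart between WT IAA and WT untreated (6 in the report).

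Centring turned the sign of some calls, by its own construction where the chromosome or neighbourhood moved. Centred per chromosome, the log2 fold change was −0.0033 for Tfcp2l1 in K365T ID and −0.20 for Stat3 in R377H ID. In R448Q ID it was −0.0048 for Tfcp2l1 and −0.033 for Prdm14, and in H455R ID −0.040 for Klf2 and −0.049 for Sall1. For Stat3 in R377C ID against R377H ID it was 0.18. Centred on 100 neighbouring genes, it was −0.18 for Stat3 in R377H ID, −0.011 for Sox2 and −0.13 for Prdm14 in R448Q ID, −0.046 for Klf2 and −0.14 for Sall1 in H455R ID, and 0.19 for Stat3 in R377C ID against R377H ID. Another 13 calls were lost per chromosome and 20 by neighbours.

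With 1 library left out, the number of members called was 8 to 13 in WT IAA, 8 to 10 in R339Q ID, 5 to 7 in R342C ID, 2 to 4 in S354F ID, 10 to 14 in K365T ID, 1 to 2 in R377C ID, 8 to 10 in R377H ID, 9 to 10 in Q418R ID, 16 to 16 in R448Q ID, 11 to 15 in H455R ID and 3 to 4 in R377C ID against R377H ID. The group then left with 1 library is assumed to vary like the others. With 2 libraries a group, small changes of members could not be told from the spread between libraries.

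Groups share the replicate numbers 1 and 2, and the labels do not say whether the numbers pair the samples. Over genes, deviations of same-numbered libraries from their group means correlated between −0.13 and 0.21 with those of WT ID. The highest value was for WT IAA, the same cell line. With 2 libraries a group these values cannot decide whether the numbers pair the samples. With a replicate block the members called were 17 in WT IAA, 14 in R339Q ID, 8 in R342C ID, 5 in S354F ID, 14 in K365T ID, 6 in R377C ID, 11 in R377H ID, 14 in Q418R ID, 18 in R448Q ID and 17 in H455R ID, and 2 calls were lost. In S354F ID, the only group in which the correlation was below −0.1, a crossed pairing chosen after seeing the data called 6 members, against 5 without a block.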
